A study of Mus musculus with 18 samples.

Results

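The mitochondrial carriers are the members of solute carrier family 25, and they were taken here as every gene whose symbol begins with Slc25a and a number. 44 of the 18838 genes in the 3 tables of the series met this rule, 44 in the crypt table and 43 in each enteroid table, since Slc25a31 had a row in the crypt table only. Slc25a18, Slc25a41, Slc25a54 and Slc25a5-ps also carry such a symbol in the annotation and were not analysed here. The 18 libraries are bulk mRNA of duodenal epithelium from 3 WT (Mtgr1+/+) mice and 3 mice labelled Mtgr1-/-, which lack the transcriptional corepressor MTGR1 (gene Cbfa2t2) in every tissue. Each mouse gave freshly isolated crypts (day 0) and enteroids, the epithelial organoids that grow from plated crypts, harvested at 24 h (day 1) and 72 h (day 3). The study's methods give littermates of both sexes and adult mice for the enteroids, while the labels do not give the sex of each mouse. No treatment was applied to either genotype, and the null allele is constitutive, so crypts and enteroids carry it alike.

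Mitochondrial carriers are small proteins of the inner mitochondrial membrane that exchange or import metabolites which cannot cross it otherwise. They link the cytosol to the matrix for ADP and ATP, phosphate, citric acid cycle intermediates, amino acids, fatty acids bound to carnitine, nucleotides, cofactors and iron. Absorptive enterocytes oxidise fatty acids and amino acids in their mitochondria, whereas crypt progenitors divide and use these pathways to different degrees.

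The libraries held 22035316 to 29661084 reads on genes, with a median of 26258539, recovered from the deposited normalized counts. Cbfa2t2 itself was not lower by label: the log2 differences for crypts, day 1 and day 3 were -0.05, 0.37 and 0.06, with adjusted p-values of 0.917, 0.0557 and 0.686. The deleted part of the gene is not given in the labels, so that these counts do not check the genotype, and Mtgr1-/- below stands for the library labelled so. The 7 epithelial marker genes summed to between 5248 and 11413 CPM (counts per 1000000 counts of the library) in every library, and the 5 fibroblast markers to at most 2.77. Immune markers were highest in the third WT crypt library, at 250.1 CPM against 24.8 to 42.6 in the other 5 crypt libraries. In bulk samples, fewer cells of a type and less RNA per cell cannot be told apart.

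Values are normalized counts of 3 libraries in the order of mouse number, WT first and Mtgr1-/- after "against". The 3 tables were normalized separately, so where such values of different times are set side by side, this is a description only. Log2 differences are Mtgr1-/- minus WT on log2(normalized count + 1), each ± its standard error, with Benjamini-Hochberg adjusted p-values from limma over all genes with a mean of at least 10. A carrier is called higher or lower where this adjusted p is under 0.05, and an exact permutation test of 3 against 3 could not go below 0.1. In crypts 40 carriers reached the minimum, leaving out Slc25a2, Slc25a21, Slc25a31 and Slc25a48. Both enteroid tables had 41 such carriers, without Slc25a2 and Slc25a21.

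Levels between carriers can be set side by side only per length, and CPM per kilobase of transcript spanned from 0.00606 in Slc25a31 (crypts only) to 1043 in Slc25a5. This ADP/ATP carrier of proliferating cells was followed by the phosphate carrier Slc25a3 at 508, the citrate carrier Slc25a1 at 142 and the glutathione carrier Slc25a39 at 139 (means over 18 libraries). Then came Slc25a11 at 83.4, Slc25a10 at 79.5, Slc25a15 at 64, Slc25a24 at 54 and Slc25a45 at 53.5. Neighbours in this order such as Slc25a1 and Slc25a39, or Slc25a24 and Slc25a45, changed places between groups. Slc25a5 and Slc25a3 together held 40.9% to 54.9% of the counts on carriers in each library. Slc25a5 is uncertain, because 33.8% of the 50-base stretches of its transcripts also occur in 9 other annotated genes, and reads of 50 bases could be shared among them. The next highest shares were 6.99% in Slc25a37, 6.70% in Slc25a36 and 5.61% in Slc25a20.

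**Figure D1:**
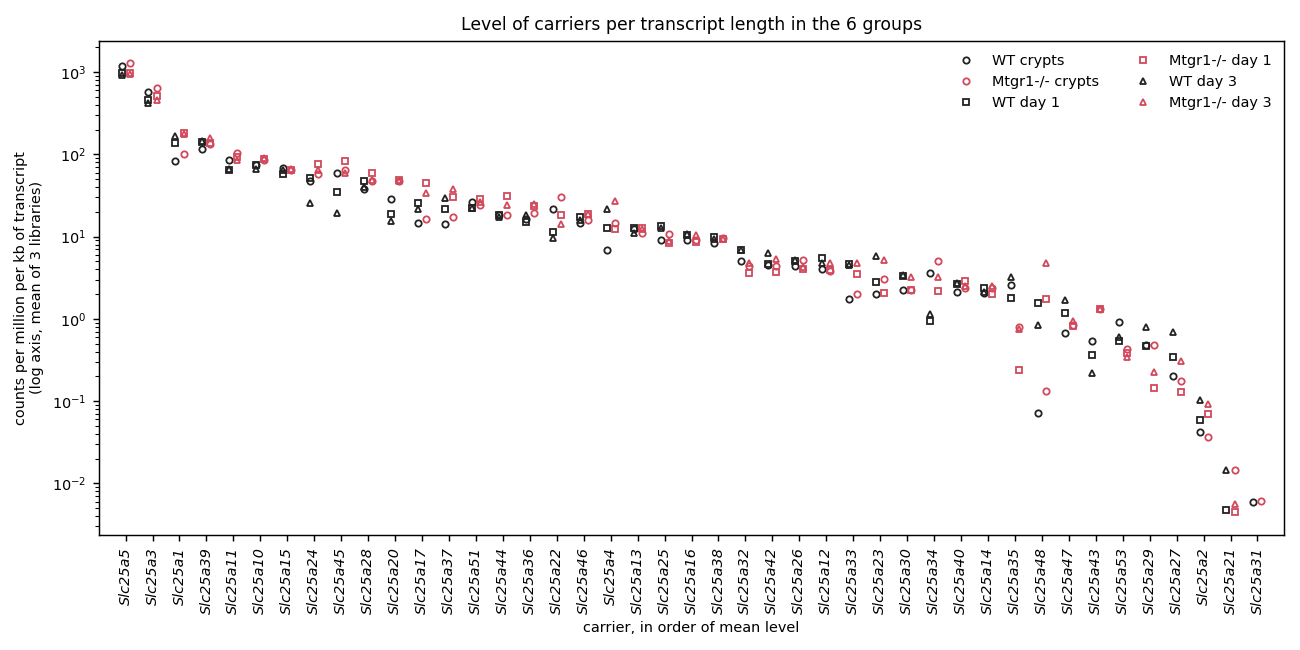
The level of the carriers reported singly is plotted on a log axis as CPM per kilobase of transcript, 1 symbol for the mean of 3 libraries in each of the 6 groups (black WT, red Mtgr1-/-, shape by time). Slc25a5 and Slc25a3 stand above the other carriers in all 6 groups, and symbols at 0 cannot be drawn on this axis.

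The summed counts of the family were slightly higher in Mtgr1-/- enteroids. In crypts they were 4601, 4689 and 4003 CPM in WT against 5292, 4554 and 4920.1, and the groups overlapped. At day 1 they were 4036, 4101 and 4071 against 4745, 4684 and 4830.3. By day 3 they were 3830.2, 3936 and 3950.2 against 4365, 4762 and 4554. On both enteroid days each Mtgr1-/- library lay above each WT library.

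Few carriers differed in fresh crypts. 3 of 40 were called, 2 higher (Slc25a4, Slc25a20) and 1 lower (Slc25a35), beside 4.73% of all genes tested (1.58% higher and 3.15% lower). The libraries of the genotypes did not overlap for 5 carriers with Mtgr1-/- above and 3 with Mtgr1-/- below, where 12.0% and 13.5% of all genes did so. No call remained without the first WT crypt library, and the 3 calls held without the third WT crypt library except that of Slc25a4.

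In day 1 enteroids 25 of 41 carriers were called, close to the 58.9% of all genes called, but with a split of 22 higher to 3 lower where all genes gave 30.0% higher and 28.9% lower. The median log2 difference of the carriers was 0.32, against -0.01 for all genes. Day 3 gave 26 of 41, 20 higher and 6 lower, beside 59.0% of all genes (29.9% higher and 29.1% lower), with a carrier median of 0.32 against 0.00. Mtgr1-/- libraries lay wholly above WT for 23 carriers at day 1 and 26 at day 3 (34.2% and 34.6% of all genes), and wholly below for 6 and 8 (33.9% and 34.2%). The lower calls were the less settled. At day 1 they numbered 7 with array weights (all genes 34.7% lower). They numbered 5 with mouse number as a block (31.1%) or with a stricter filter (29.9%). At day 3 they numbered 3 without the first or the second WT library (23.5% and 22.4%) and 2 without the third (22.6%).

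The direction of small differences depended on the scale. When each library was divided by its total count, the median log2 difference of all genes moved by -0.32 at day 1 and -0.20 at day 3, and calls became 14 higher and 10 lower at day 1 (all genes 17.5% and 44.4%), and 17 higher and 7 lower at day 3 (all genes 21.5% and 39.8%). The carrier median was above that of all genes by 0.33 at day 1 and 0.31 at day 3 on both scales. Such scaling shifts the genes of a library nearly alike, so this gap could hardly change and is no check. Calls that this scale ended at day 1 were those of Slc25a3, Slc25a5, Slc25a10, Slc25a15, Slc25a40 and Slc25a46, and the values of Slc25a13 and Slc25a39 turned to just below 0. At day 3 it ended those of Slc25a3, Slc25a13 and Slc25a39.

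18 carriers were higher on both enteroid days: Slc25a3, Slc25a10, Slc25a11, Slc25a13, Slc25a17, Slc25a20, Slc25a22, Slc25a24, Slc25a28, Slc25a34, Slc25a36, Slc25a37, Slc25a39, Slc25a43, Slc25a44, Slc25a45, Slc25a46 and Slc25a51. On the scale of library totals, Slc25a13 and Slc25a39 had log2 differences of -0.01 and -0.03 at day 1. Slc25a25, Slc25a32 and Slc25a35 were lower on both days. 4 were called at day 1 only (Slc25a1, Slc25a5, Slc25a15, Slc25a40), 5 at day 3 only (Slc25a4, Slc25a27, Slc25a29, Slc25a47, Slc25a48), and 11 on neither. No carrier had opposite calls. The shares of all genes in these classes were not computed, so the counts do not set carriers apart.

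**Figure D2:**
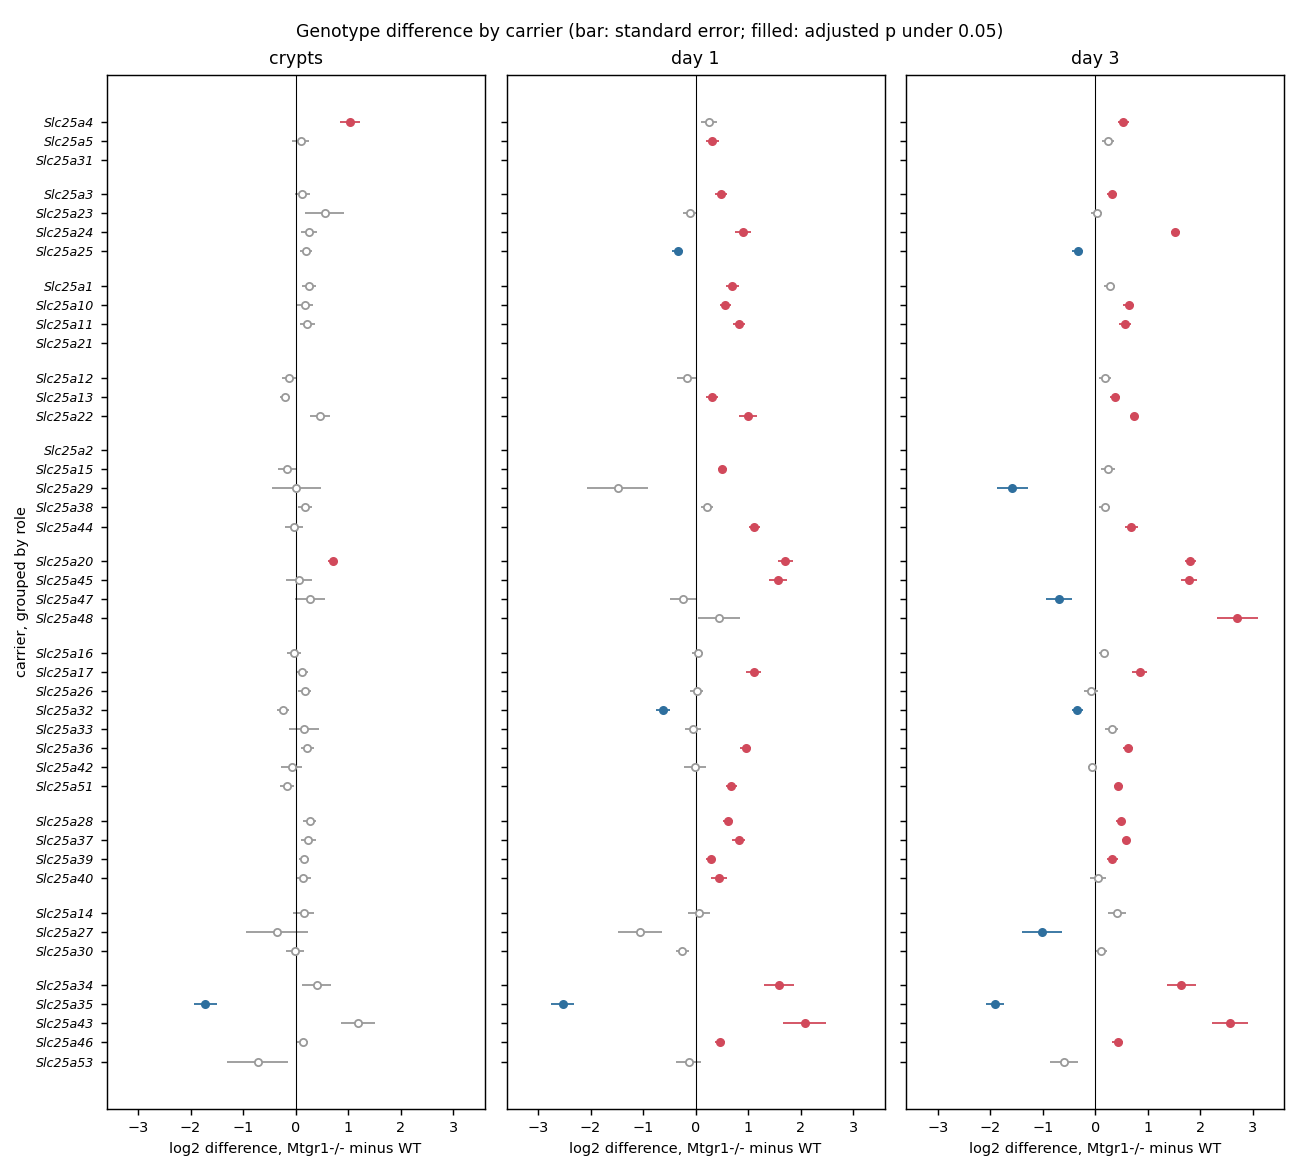
Log2 difference (Mtgr1-/- minus WT, x axis) of the carriers that were tested and are reported singly, grouped by role from top to bottom, at 3 time points. Bars are standard errors, filled symbols have an adjusted p under 0.05 (red higher, blue lower), and open symbols do not. Filled symbols number 3 in crypts, 25 at day 1 and 26 at day 3, most of them right of 0 in enteroids.

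The carnitine/acylcarnitine carrier and its close relatives included several of the wider differences of the family. Slc25a20 (chromosome 9, 108662088 to 108684641, GRCm38) imports acylcarnitines for fatty acid oxidation, Slc25a45 and Slc25a47 are its close relatives, and Slc25a48 has been linked to choline import. The bases just upstream of the annotated transcripts are shown for the 3 members that were higher at day 3, from RefSeq on GRCm38, plus strand, 5′ to 3′. Capitals mark AGGTCA, a nuclear receptor motif, or CAGGTG, the E-box bound by E proteins, which are known partners of MTG corepressors, searched on both strands without overlap between motifs. The intervals are chr9:108661886-108662087, chr19:5877572-5877807 and chr13:56438105-56438354.
Slc25a20: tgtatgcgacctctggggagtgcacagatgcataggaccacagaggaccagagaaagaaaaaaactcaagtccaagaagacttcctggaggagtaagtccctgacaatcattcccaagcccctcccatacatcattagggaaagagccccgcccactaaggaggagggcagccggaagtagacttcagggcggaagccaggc
Slc25a45: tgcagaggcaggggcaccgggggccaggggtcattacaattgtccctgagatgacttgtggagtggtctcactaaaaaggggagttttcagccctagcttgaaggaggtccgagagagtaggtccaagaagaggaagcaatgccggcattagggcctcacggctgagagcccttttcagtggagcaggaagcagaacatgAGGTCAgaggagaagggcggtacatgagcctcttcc
Slc25a48: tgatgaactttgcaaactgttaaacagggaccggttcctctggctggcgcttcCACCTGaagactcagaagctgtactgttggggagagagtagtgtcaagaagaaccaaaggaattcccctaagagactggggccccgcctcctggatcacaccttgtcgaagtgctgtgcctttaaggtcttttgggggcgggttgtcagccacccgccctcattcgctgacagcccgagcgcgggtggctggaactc
AGGTCA stands once in the Slc25a45 stretch and CAGGTG once, as its reverse complement, in that of Slc25a48, while the Slc25a20 stretch shown holds neither. The longer RefSeq window of Slc25a20, which runs past the transcript start, does hold CAGGTG. Over whole RefSeq promoter windows of 300.0 bases, CAGGTG lies in 22.6% of 27025 genes and 7 of the 34 carriers that matched, Slc25a20 and Slc25a48 among them, and AGGTCA in 18.1% and 4 of 34. CACGTG, another E-box, lies in 8.09% of all genes and in 7 of 34 carriers (20.6%), namely Slc25a1, Slc25a13, Slc25a14, Slc25a15, Slc25a31, Slc25a33 and Slc25a36, and the difference was not tested. These are matches of letters and show no binding.

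Slc25a20 was higher at all 3 time points. In crypts it stood at 1306, 1263 and 1332 against 2273, 1972 and 2130.4 (0.71 ± 0.09, adjusted p = 0.00701). The day 1 values were 948, 701 and 750.1 against 2978, 2320.4 and 2533 (1.71 ± 0.14, adjusted p = 0.000134). The day 3 values were 618, 655 and 701 against 2064, 2606 and 2270.4 (1.81 ± 0.10, adjusted p = 1.24e-05). Each Mtgr1-/- library lay above each WT library every time, and in WT the level fell from crypts to day 3 while in Mtgr1-/- it changed little. The crypt call was lost without the first WT library, with an adjusted p of 0.0522, the highest over 19 alternatives.

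Slc25a45 (chromosome 19, 5877808 to 5885878) was not called in crypts, with 3754, 3894 and 3975 against 4929.6, 2639.5 and 5162 and a log2 difference of 0.07 ± 0.25. The enteroid values were 2273, 2000.5 and 2244 against 7167, 4823 and 7632 at day 1 (1.56 ± 0.17, adjusted p = 0.000339). By day 3 they were 1234, 1133 and 1297 against 3526, 5423 and 3833 (1.78 ± 0.15, adjusted p = 6.63e-05). The WT level fell at each step, and the Mtgr1-/- libraries lay wholly above WT on both enteroid days.

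Slc25a48 (chromosome 13, 56438355 to 56474239) was near the detection limit in crypts, at 3.83, 9.9 and 4.6 against 7.53, 11.4 and 15.2, and was not tested there. Day 1 gave 168, 71.9 and 141 against 227, 191 and 99.3, with overlapping groups (0.44 ± 0.40, adjusted p = 0.362). Day 3 gave 87.8, 34.7 and 78.4 against 659, 318 and 330.1 (2.70 ± 0.40, adjusted p = 0.000805), the largest difference of the family that day. The difference at day 3 minus that at day 1 was 2.26 ± 0.65 and did not pass (adjusted p = 0.258). Slc25a47, a low gene best known from liver, went the other way at day 3, at 69, 81.9 and 82.3 against 62.6, 34.8 and 48.3 (-0.70 ± 0.25, adjusted p = 0.0382). That call was lost without the first, the second or the third WT day 3 library, or without the second or the third Mtgr1-/- one.

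The ADP/ATP carriers export ATP from the matrix in exchange for ADP. Slc25a4 (chromosome 8, 46206797 to 46211284), the form of heart and muscle, was higher in crypts at 309.5, 372 and 322 against 886, 671 and 539.7 (1.03 ± 0.19, adjusted p = 0.0306). Day 1 values were 532, 573 and 656 against 662, 871 and 592 and overlapped (0.26 ± 0.16, adjusted p = 0.197). Day 3 values were 878, 1028 and 1099.7 against 1333, 1454 and 1542 (0.53 ± 0.11, adjusted p = 0.00346). The crypt difference, about 2-fold on this scale, rested on few libraries: its adjusted p rose above the threshold when any 1 of 5 libraries was left out, reaching 0.131, and it stayed under it only without the third Mtgr1-/- one.

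Slc25a5 (chromosome X, 36795651 to 36798807), the most abundant carrier, overlapped in crypts at 39156, 39866 and 32695 against 40705, 35267 and 43226. For day 1 the libraries held 31233, 27581 and 27542 against 37600.4, 32522 and 37927, higher by 0.32 ± 0.12, adjusted p = 0.0496. For day 3 the libraries held 25660.4, 27832 and 27796 against 28154, 36217 and 31791, a difference of 0.24 ± 0.12, adjusted p = 0.118 that did not pass. Its day 1 call was lost in 10 of 19 alternatives, among them leaving out any WT library or the first or the third Mtgr1-/- one, and quantile normalization gave -0.23 in place of 0.32. Without the first Mtgr1-/- library day 3 was called too. Slc25a31, the testis form, had 0 to 0.958 in the 6 crypt libraries.

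Phosphate and ATP-Mg/phosphate carriers split by member. Slc25a3 (chromosome 10, 91116574 to 91124059) supplies phosphate for ATP synthesis and stood at 24128, 25198 and 20916 against 26999, 21902 and 27999 in crypts, which overlapped. Day 1 enteroids had 18391, 17188 and 17286 against 26490.5, 21953 and 25691 (0.48 ± 0.11, adjusted p = 0.00666). Day 3 enteroids had 15745, 16576 and 15988 against 18415, 22194 and 19763 (0.32 ± 0.10, adjusted p = 0.0224). Both enteroid days had each Mtgr1-/- library above each WT library. The day 3 call was lost without any 1 of the WT libraries or the third Mtgr1-/- one.

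Slc25a24 (chromosome 3, 109123149 to 109168457), a calcium-regulated ATP-Mg/phosphate carrier, overlapped in crypts at 4198, 4916 and 3342 against 4406, 5062 and 5188. At day 1 it was 4649, 3305 and 4781 against 8851, 7020.0 and 7709.5 (0.90 ± 0.16, adjusted p = 0.00215). At day 3 it was 1999.6, 2089 and 2294 against 5903, 6764 and 5723 (1.52 ± 0.09, adjusted p = 1.51e-05). The Mtgr1-/- libraries lay above WT on both days, and the WT level at day 3 was below that of crypts and day 1 in each mouse. Its relative Slc25a25 was lower on both days, with log2 differences of -0.34 ± 0.11 (adjusted p = 0.0262) and -0.34 ± 0.10 (adjusted p = 0.0197), while Slc25a23 was called at neither (-0.11 and 0.02). The day 1 call of Slc25a25 was lost without the first or the third WT or the second Mtgr1-/- library, and its day 3 call without the second or the third WT library.

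The di- and tricarboxylate carriers move citric acid cycle intermediates. Slc25a1 (chromosome 16, 17925223 to 17928219), which exports citrate for lipid synthesis, overlapped in crypts at 3787, 3983 and 2909 against 4397, 3908 and 4345. The day 1 values were 5374, 5536 and 5645 against 9098, 7602 and 10507 (0.70 ± 0.12, adjusted p = 0.00204), and at day 3 6034, 7081 and 6870.1 against 7121, 8797 and 8321 (0.28 ± 0.11, adjusted p = 0.0518). Only the day 1 difference passed, although the groups did not overlap at day 3 either and day 3 was called without the first Mtgr1-/- library. The dicarboxylate carrier Slc25a10 (0.57 and 0.64) and the oxoglutarate carrier Slc25a11 (0.83 and 0.56) were called higher on both days, with adjusted p-values of 0.00217, 0.00158, 0.000774 and 0.00379. Slc25a21 had at most 2.03 in any library.

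Among the aspartate and glutamate carriers, Slc25a22 (chromosome 7, 141429744 to 141437892), a glutamate importer, was 1466, 1398 and 1727 against 1951, 1715 and 2781 in crypts, where the groups overlapped. Day 1 gave 699.6, 736 and 833 against 1469, 1212 and 1926 (1.00 ± 0.17, adjusted p = 0.00179). The day 3 values were 655, 675 and 631 against 1064, 1063 and 1134 (0.73 ± 0.08, adjusted p = 0.000207). The Mtgr1-/- libraries lay above WT on both enteroid days. Slc25a13, the aspartate/glutamate exchanger of liver and gut, was called higher at day 1 (0.32 ± 0.11, adjusted p = 0.0363) and day 3 (0.37 ± 0.09, adjusted p = 0.00908), whereas its paralog Slc25a12 was not called (-0.17 and 0.18). The day 1 call of Slc25a13 was lost when any of the 3 WT libraries, or the first or the third Mtgr1-/- one, was left out.

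The amino acid carriers diverged. Slc25a15 (chromosome 8, 22375551 to 22398597) imports ornithine for the urea cycle and stood at 5718, 6073 and 6161 against 6679, 4007 and 5721 in crypts. For day 1 the libraries held 4694, 4848 and 4389.9 against 6584, 6324 and 6917 (0.51 ± 0.08, adjusted p = 0.00147), and at day 3 5364, 4896 and 5485 against 5229, 7643 and 5943 (0.24 ± 0.14, adjusted p = 0.159). The groups were separate at day 1 and overlapped at the other times, and day 3 was called only without the first Mtgr1-/- library.

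Slc25a44 (chromosome 3, 88410498 to 88425139), an importer of branched-chain amino acids, overlapped in crypts at 1794, 1846 and 1374 against 1780.1, 1323 and 1797. Day 1 enteroids had 1603, 1557 and 1457 against 3491, 2963 and 3624 (1.12 ± 0.10, adjusted p = 0.000176), and at day 3 1507, 1466 and 1515 against 2106, 2938 and 2233 (0.68 ± 0.12, adjusted p = 0.00219). Each WT group spanned a narrow range that all Mtgr1-/- enteroid libraries exceeded. Slc25a29 (chromosome 12, 108825873 to 108835883), which carries basic amino acids, ran opposite at low counts: crypts held 33.5, 12.9 and 25.3 against 18.8, 31.4 and 19.3 and overlapped. At day 1 it was 17.4, 28.1 and 19.3 against 2.33, 11.4 and 11 (-1.48 ± 0.58, adjusted p = 0.0581). Day 3 gave 34.1, 36.5 and 41.6 against 12.5, 8.95 and 14.6 (-1.58 ± 0.29, adjusted p = 0.00244). All Mtgr1-/- enteroid libraries lay below WT, and with mouse number as a block the day 1 difference passed (adjusted p = 0.0369), as it did without the second or the third Mtgr1-/- library. The glycine carrier Slc25a38 was called at no time, and Slc25a2 stayed at or below 4.97.

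The nucleotide, coenzyme A, NAD and cofactor carriers differed by member. Slc25a17 (chromosome 15, 81318911 to 81360812), which serves peroxisomes and carries coenzyme A and related cofactors, overlapped in crypts at 588, 673 and 679 against 752, 743 and 620.0. The day 1 values were 1021, 991 and 1182 against 2508, 1831 and 2606 (1.11 ± 0.15, adjusted p = 0.000713). For day 3 the libraries held 864, 896 and 936 against 1480.2, 2058 and 1372 (0.84 ± 0.15, adjusted p = 0.00178). Both days put all Mtgr1-/- libraries above WT, more clearly at day 1 than at day 3 in size, although the change between the days did not pass (adjusted p = 0.831).

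Slc25a51 (chromosome 4, 45395923 to 45408766), the mitochondrial NAD+ importer, was 3039, 3227 and 2701 against 2573, 2313 and 3123 in crypts. Day 1 gave 2371, 2296 and 2358 against 3839, 3248 and 4222 (0.68 ± 0.11, adjusted p = 0.00132), and at day 3 2476, 2281 and 2349 against 3039, 3607 and 3018 (0.44 ± 0.09, adjusted p = 0.00402). Its groups overlapped in crypts and were separate in enteroids. The pyrimidine nucleotide carrier Slc25a36 was also higher, by 0.96 ± 0.11 and 0.62 ± 0.10 (adjusted p = 0.000361 and 0.00123). Slc25a32, the folate and FAD carrier, was lower, at -0.63 ± 0.13 and -0.34 ± 0.10 (adjusted p = 0.00495 and 0.018). Its day 3 call was lost without the first or the third WT library. Slc25a16, Slc25a26, Slc25a33 and Slc25a42 had log2 differences between -0.09 and 0.31 on the enteroid days and were not called.

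All 4 iron and glutathione carriers were called higher at day 1 and 3 of 4 at day 3, beside 30.0% and 29.9% of all genes. Slc25a39 (chromosome 11, 102402985 to 102407946), which imports glutathione, was 5089.6, 5252 and 4721 against 5769.7, 5165 and 5999 in crypts. For day 1 the libraries held 5604, 5664 and 5671 against 6857, 6280.4 and 7615 (0.29 ± 0.09, adjusted p = 0.0276), and at day 3 5241, 6185 and 6109 against 6425, 7763 and 7746 (0.32 ± 0.11, adjusted p = 0.0311). These were small differences: on the scale of library totals the day 1 value turned to -0.03 and the day 3 value was 0.12, neither called. Its day 1 call was lost without any 1 of the WT libraries or the first or the third Mtgr1-/- one, and its day 3 call without the first or the third WT or the second or the third Mtgr1-/- one. The mitoferrins, which import iron, differed more, Slc25a28 by 0.62 ± 0.10 and 0.48 ± 0.09 (adjusted p = 0.00125 and 0.00281), and Slc25a37 by 0.82 ± 0.12 and 0.58 ± 0.08 (adjusted p = 0.000994 and 0.000746). Slc25a40 was called at day 1 only (0.45 ± 0.16, adjusted p = 0.0389), and not with mouse number as a block (adjusted p = 0.0528) or without the first or second WT or the first or the third Mtgr1-/- library.

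The uncoupling-protein-like carriers were low and showed 1 call. Slc25a30 (chromosome 14, 75760117 to 75787037), the most abundant of them, was 204, 172 and 231 against 219, 199 and 179.9 in crypts and 285, 267 and 299 against 232, 259 and 224 at day 1 (-0.25 ± 0.13, adjusted p = 0.118). Day 3 enteroids had 303, 290.4 and 285 against 345, 307 and 298 (0.11 ± 0.11, adjusted p = 0.412). The groups were separate at day 1, Mtgr1-/- below, but the difference did not pass. Slc25a27 (chromosome 17, 43641891 to 43667214), a neuronal relative of the uncoupling proteins, had 9.58, 16.8 and 18.4 against 15.1, 17.1 and 5.08 in crypts. Day 1 enteroids had 18.3, 31.2 and 20.1 against 11.7, 14.2 and 6.62 (-1.05 ± 0.41, adjusted p = 0.0581), and at day 3 60.9, 47.2 and 34.8 against 33, 12.9 and 25.8 (-1.03 ± 0.38, adjusted p = 0.0471). The Mtgr1-/- libraries lay below WT on both days. With mouse number as a block, or without the second Mtgr1-/- library, day 1 passed too (adjusted p = 0.0447 with the block), while the day 3 call was lost in 9 of 19 alternatives, among them leaving out any WT library or the second or the third Mtgr1-/- one. Slc25a14 was not called (0.07 and 0.41).

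Carriers whose substrate is unassigned or debated held the widest spread. Slc25a35 (chromosome 11, 68968131 to 68974365) was lower at every time. In crypts it was 253, 222 and 234 against 91.4, 67.5 and 57.9 (-1.72 ± 0.21, adjusted p = 0.00709). At day 1 it was 147, 175 and 137 against 28, 28.4 and 21 (-2.53 ± 0.22, adjusted p = 0.000172). At day 3 it was 292, 271 and 276 against 92.2, 61.6 and 70.7 (-1.91 ± 0.17, adjusted p = 8.75e-05). No library of one genotype reached the other, and the crypt call was lost without the first WT library (adjusted p = 0.0557).

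Its close paralog Slc25a34 (chromosome 4, 141618824 to 141623821), went the opposite way. Crypts held 238, 223 and 285 against 304, 234 and 491 and overlapped. The day 1 values were 84.1, 59.4 and 36.9 against 174, 177 and 171 (1.59 ± 0.29, adjusted p = 0.00247), and at day 3 78, 72.1 and 66.8 against 173, 371 and 182 (1.64 ± 0.28, adjusted p = 0.00179). In WT the normalized counts of the enteroid tables were below those of the crypt table, and the Mtgr1-/- enteroid libraries lay above every WT enteroid library.

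Slc25a43 (chromosome X, 36743659 to 36777202) was low throughout, and no Mtgr1-/- library overlapped WT at any time. Crypts held 13.4, 17.8 and 15 against 39.6, 32.3 and 36.6 (1.18 ± 0.32, adjusted p = 0.0964). Day 1 gave 13.7, 8.33 and 6.7 against 56, 27.5 and 48.5 (2.08 ± 0.41, adjusted p = 0.00355), and at day 3 6.27, 4.45 and 6.78 against 39.8, 29.8 and 49.4 (2.56 ± 0.34, adjusted p = 0.000516). The crypt difference did not pass despite its size. The WT means were 9.58 at day 1 and 5.83 at day 3, under the minimum mean for testing. Slc25a43 thus entered the tests of these days through its Mtgr1-/- libraries, and the size of its differences rests on few WT counts. Slc25a46, an outer membrane protein that takes part in mitochondrial fusion and fission, was 1650.2, 1759 and 1408 against 1773, 1695 and 1789 in crypts. For day 1 the libraries held 1958, 1694 and 1719 against 2681, 2371 and 2338 (0.46 ± 0.10, adjusted p = 0.00455), and at day 3 1736, 1580.0 and 1749 against 2024, 2547 and 2251 (0.42 ± 0.10, adjusted p = 0.00724). It was higher by a small amount in enteroids, without overlap. Slc25a53 was called at no time. It stood at 154 in the third WT crypt library, the one with the highest immune marker sum, against 32.5 to 36.6 in the other 5, and the part of those cells in it was not tested.

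**Figure D3:**
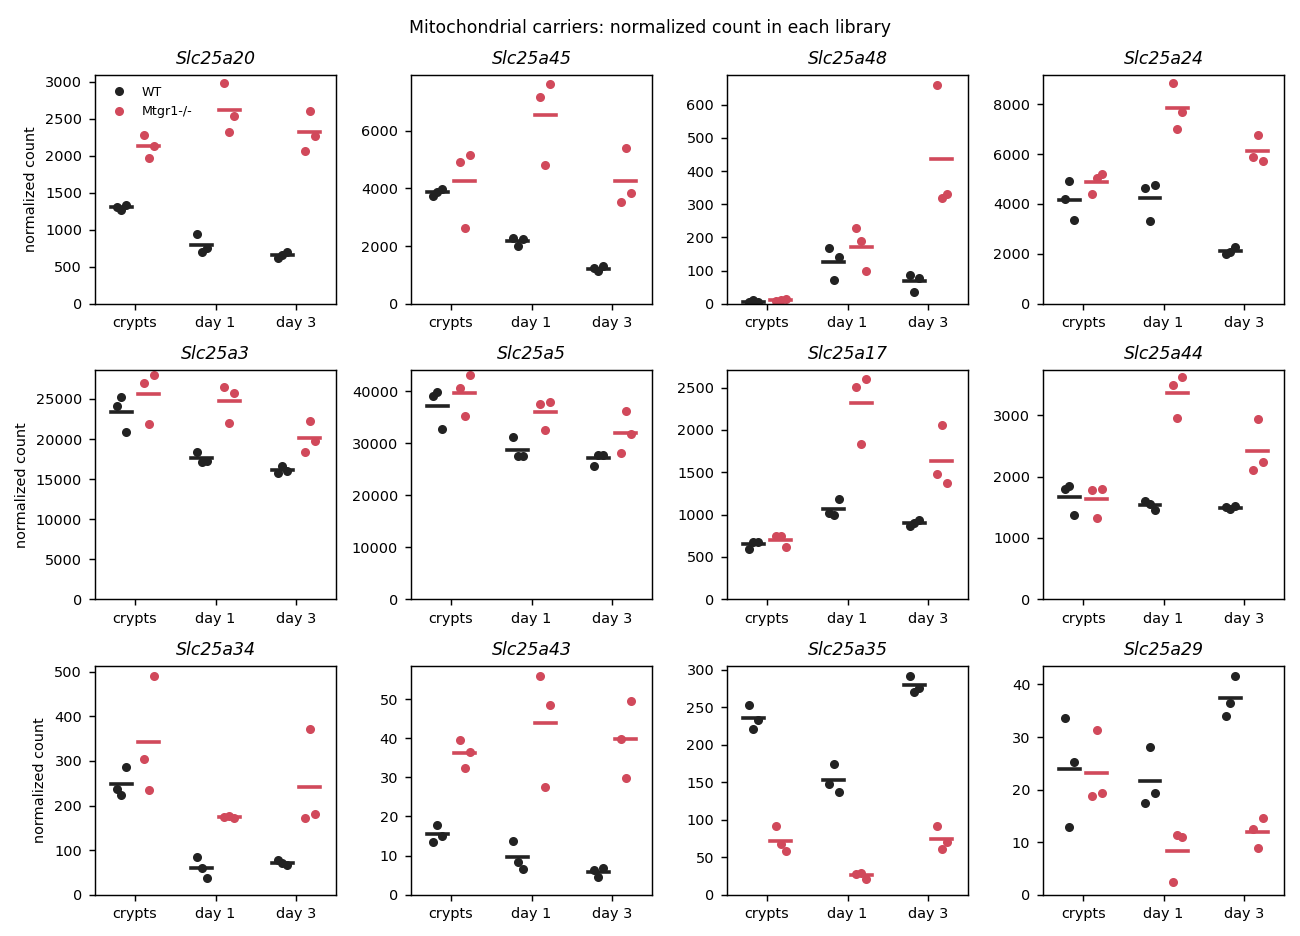
Normalized count (y axis, from 0) of 12 carriers in each library by time point, black WT and red Mtgr1-/-, 1 point per mouse with a line at the mean of 3. In enteroids the red points of Slc25a20, Slc25a45, Slc25a24, Slc25a34 and Slc25a43 lie above all black ones, those of Slc25a35 and Slc25a29 below. The 3 tables were normalized separately.

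The genotype difference at one time point minus that at another was tested in 1 model of the 18 libraries that treats the mouse as a random term. Between crypts and day 1 it changed for 15 of 41 carriers, 12 toward higher and 3 toward lower, beside 39.4% of all genes (19.4% and 20.0%). For crypts and day 3 these were 12 of 41, 10 and 2, counting Slc25a48, which was under the minimum in crypts and entered through its enteroid values, beside 30.6% (16.3% and 14.4%). On the scale of library totals the splits were 5 and 9 (all genes 9.45% and 34.4%) and 5 and 3 (all genes 10.6% and 22.1%). From day 1 to day 3 limma called 0 of 41 carriers, with 6 at an unadjusted p under 0.05 and 0 on the scale of library totals, beside 0.0309% of all genes. Without the first WT mouse the first of these counts was 8 (all genes 13.5% higher and 13.5% lower) and the second 4 (8.55% and 5.39%). Without the second or the third WT mouse the second was 4 (8.47% and 4.95%) or 7 (11.4% and 5.05%). Without the second Mtgr1-/- mouse 5 carriers were called lower for day 3 against day 1, beside 3.27% of all genes lower and 3.61% higher. With 1 mouse left out, changes toward lower numbered 0 to 4 from crypts to day 1 (all genes 13.4% to 21.6%). From crypts to day 3 they numbered 0 to 3 (all genes 4.95% to 14.3%).

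Among those that passed, the largest changes from crypts to day 1 were those of Slc25a45 (1.49 ± 0.31, adjusted p = 0.00296), Slc25a34 (1.19 ± 0.45, adjusted p = 0.0441) and Slc25a44 (1.16 ± 0.20, adjusted p = 0.0013). Slc25a20 changed by 1.00 ± 0.17, adjusted p = 0.00108, and Slc25a17 by 0.99 ± 0.21, adjusted p = 0.00336. Of these only Slc25a20 had already been called in crypts. Slc25a4 moved the other way (-0.78 ± 0.24, adjusted p = 0.0178), since its crypt difference was the larger, as did Slc25a35 (-0.81 ± 0.27, adjusted p = 0.0274). The changes of Slc25a20, Slc25a45, Slc25a44, Slc25a17 and Slc25a51 held in all 10 alternatives, and that of Slc25a34 in 3.

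Over time, levels are given as CPM of each library, which can be set side by side between tables, and as a description only. From crypts to day 3, 22 of 43 carriers rose and 12 fell in all 3 WT mice, and 19 rose and 5 fell in all 3 Mtgr1-/- mice. The share of all genes that did so was not computed, so these counts do not set carriers apart from other genes. Slc25a45 was 149.8, 153 and 154 CPM in WT crypts and 52.2, 47.1 and 53.6 in WT day 3 enteroids. In Mtgr1-/- it was 205, 111 and 191 and 135, 184 and 141. Its WT level thus fell in each mouse, while in Mtgr1-/- it fell in 2 mice and rose in the other.

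Slc25a20 was 52.1, 49.6 and 51.6 in WT crypts and 26.2, 27.2 and 28.9 at day 3, against 94.5, 82.9 and 78.8 and 79.2, 88.4 and 83.5 in Mtgr1-/-. Slc25a24 was 168, 193 and 129.5 and 84.6, 87 and 94.7 in WT, against 183, 213 and 192 and 227, 229 and 211. Both fell in all 3 WT mice. Slc25a48 rose in all 6 mice, from 0.153, 0.389 and 0.178 to 3.72, 1.45 and 3.24 in WT and from 0.313, 0.48 and 0.564 to 25.3, 10.8 and 12.1 in Mtgr1-/-. Slc25a4 likewise rose in all 6 mice, by log2 changes of 1.59, 1.54 and 1.86 in WT and 0.47, 0.81 and 1.50 in Mtgr1-/-. Slc25a3 and Slc25a5 fell in all 6, with log2 changes of -0.53, -0.52 and -0.30 and -0.53, -0.44 and -0.14 in WT.

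**Figure D4:**
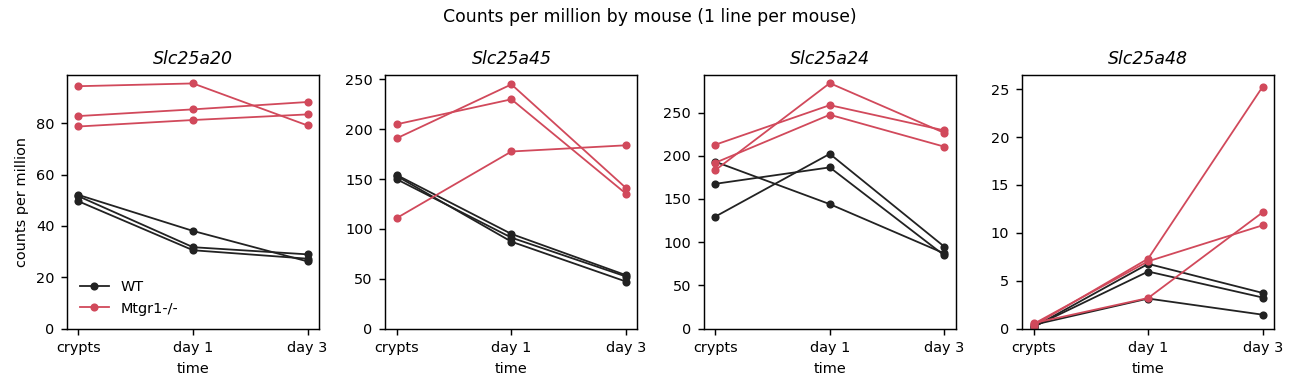
CPM (y axis, from 0) of 4 carriers in crypts and in day 1 and day 3 enteroids, 1 line for each mouse, black WT and red Mtgr1-/-. From crypts to day 3 the black lines of Slc25a20, Slc25a45 and Slc25a24 descend, and all lines of Slc25a48 ascend.

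Markers of cell types and states moved with the label in enteroids, and some of them in crypts. Of the 7 epithelial markers, limma called 1 higher in crypts (Krt18), 4 at day 1 and 6 at day 3, and 0 lower. Their sum was 7029 to 8490 CPM in WT and 8892 to 9574 in Mtgr1-/- crypts. It was 5248 to 5575 and 8086 to 8642 at day 3, and the groups overlapped at day 1. All 8 enterocyte markers were higher on both days and 0 of 8 in crypts. Their sum was 5026 to 6187 CPM in WT and 13479 to 20597 in Mtgr1-/- at day 1, 3441 to 3670 and 10889.9 to 16850.0 at day 3, and 10184 to 14440 and 11422 to 20052 in crypts. Proliferation markers were lower for 5 of 6 at day 1 (sum 1770 to 1873 against 598 to 966) and 6 of 6 at day 3 (1896 to 2009 against 685 to 1142), and 0 of 6 in crypts. All 5 stem cell markers were lower on both days (day 3 sum 3360.0 to 4183 against 36.1 to 75.4). In crypts limma called 1 of 5 lower, Olfm4 (-6.77, adjusted p = 0.000621), with sums of 1125 to 1489 against 99.6 to 217. Olfm4 held most of these counts in WT at both times. The 4 goblet markers tested and the 4 enteroendocrine markers were lower at all 3 times, with summed levels of 2216 to 2530 against 59.1 to 133 and of 227 to 319.8 against 1.72 to 4.16 at day 1. The 4 Paneth markers were lower on both enteroid days (1601 to 1973 against 21.7 to 124 at day 1) and 0 of 4 were called in crypts (3194 to 3498 against 38.7 to 1073). Tuft markers were lower for 2 of 3 at day 1 and 3 of 3 at day 3. Limma called 0 immune, smooth muscle and endothelial markers at any time, with at most 2 immune markers at an unadjusted p under 0.05 at a time, and edgeR called 1 immune marker at day 3. In crypts an unadjusted p under 0.05 was reached by 3 enterocyte, 0 proliferation, 4 Paneth and 3 tuft markers. From these 4 lists edgeR called 0 in crypts, and DESeq2 called 3 enterocyte and 3 tuft markers. The 3 enterocyte and the 3 tuft markers were then above WT in value and the 4 Paneth markers below. The tuft sum was 31.9 to 41.9 CPM in WT crypts and 51 to 161 in Mtgr1-/- crypts, opposite in direction to the enteroids. The part of these cell states in the carriers' differences was not tested.

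Among the Mtgr1-/- libraries, Slc25a45 (normalized counts) and the enterocyte sum (CPM) matched at all 3 times in the place of the second mouse only. In crypts the sums were 16463, 11422 and 20052 CPM by mouse and Slc25a45 was 4929.6, 2639.5 and 5162. At day 1 they were 19536, 13479 and 20597 and Slc25a45 was 7167, 4823 and 7632. By day 3 they were 10958, 16850.0 and 10889.9 and Slc25a45 was 3526, 5423 and 3833. The second mouse was thus lowest for both in crypts and at day 1 and highest for both at day 3. The order of the first and the third mouse differed at day 3, and also in crypts with Slc25a45 in CPM. In the second mouse the proliferation sum was highest in crypts and at day 1 and lowest at day 3. Its Paneth sum was highest each time, and a link of Slc25a45 to any of these was not tested. The second Mtgr1-/- library was highest of the 3 at day 3 for Slc25a20, Slc25a24, Slc25a17, Slc25a44 and Slc25a34, but lowest for Slc25a48. Day 1 enteroids had lowest for Slc25a20, Slc25a24, Slc25a17 and Slc25a44 but highest for Slc25a34, and in crypts lowest for Slc25a20, Slc25a44 and Slc25a34 but in the middle for Slc25a24 and Slc25a17.

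Other mitochondrial transport genes differed in part. Of the carrier-fold genes with other names, Ucp2, an uncoupling protein homologue, was higher on both days, with log2 differences of 1.13 for day 1 and 0.90 for day 3 and adjusted p-values of 0.000686 and 0.00213. Mtch2, an outer membrane insertase, was called at day 1 only (0.31, adjusted p = 0.0296), and Mtch1 on neither day. Of the other transporters of both membranes, 5 of 11 were higher and 2 lower at day 1, and 5 of 12 higher and 1 lower at day 3, where all genes gave 30.0% higher and 28.9% lower, and 29.9% higher and 29.1% lower. They included the pyruvate carrier subunit Mpc1 (0.73 and 0.63), the porin Vdac2 (0.61 and 0.55), the calcium uniporter Mcu (0.46 and 0.43) and, in the opposite direction, Sfxn2 (-0.89 and -0.71).

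The machinery that imports carriers into mitochondria and inserts them into the inner membrane was called in both directions. Of its 14 rows (13 genes, with Timm10b on 2 rows), 1 was higher and 6 lower at day 1, and 2 higher and 4 lower at day 3, beside 28.9% and 29.1% of all genes lower on these days and 30.0% and 29.9% higher, so that the share of lower rows was near the background at day 3. There were 0 calls in crypts by limma, edgeR or DESeq2 (2 at an unadjusted p under 0.05). The intermembrane chaperones Timm8a1 (-0.82 and -0.49), Timm9 (-0.64 and -0.52) and Timm10 (-0.48 and -0.27) and the insertase component Agk (-0.87 and -0.74) were lower on both days. The insertase channel Timm22 was higher on both (0.31 and 0.37). The import receptor Tomm70a, which recognises carriers, was called on neither day (-0.13 and -0.06).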

How the data were processed

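Bulk mRNA was sequenced in 18 libraries, from 3 WT and 3 Mtgr1-/- mice at 3 time points. The authors trimmed reads with fastp 0.20.0, quantified them with Salmon 1.3.0 and compared genotypes with DESeq2 1.26.0, per the labels and the study's methods. The deposited signal of each library is a normalized count, the gene count divided by 1 factor per library within the table of its time point. The authors' overall mean signal, log2 fold changes and their errors (log2), test score and p-value columns hold the authors' own comparison and were not used. Groups and mouse numbers came from the labels, which tie crypts and enteroids of one number and genotype to 1 mouse, so that p-values measure the spread between 3 mice. The members and gene lists were chosen with earlier results of these data known.

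Within each table, genes whose mean reached 10 were compared between genotypes on log2(normalized count + 1) by limma 3.58.1 in R 4.3.3, with a trended prior variance, two-sided, and Benjamini-Hochberg adjustment to a threshold of 0.05. This scale makes changes of low genes look smaller than they are. Changes of the genotype difference came from 1 model of all libraries, the mouse being a random term (correlation within a mouse 0.00576). 100% of the values of each library were whole multiples of its smallest value within 0.001 reads, which gave the reads for edgeR 4.0.16 and DESeq2 1.42.0. edgeR called 3, 24 and 26 carriers in crypts, at day 1 and at day 3, beside 559 of 12980, 7383 of 12587 and 7605 of 12782 genes. Simulated data served to test only the limma comparison within a table and the change of that difference between crypts and day 1. Other steps were not tested in this way.

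Values in every library are given for carriers called with an absolute log2 difference of at least 1 at any time, called in crypts, or changed by at least 1 between crypts and day 1, and for the most abundant carrier of each role. Gene positions and transcript lengths (the longest coding transcript) are from GENCODE M21 on GRCm38, which matched all 18838 gene identifiers. At day 1, deviations from the group mean correlated between WT and Mtgr1-/- libraries of the same number (0.116, 0.231 and 0.216). In crypts these correlations were 0.0764, 0.274 and 0.346, but WT mouse 1 and Mtgr1-/- mouse 2 also reached 0.201. That mouse number pairs the genotypes is thus a hint from the data only. The main tests did not pair them, and the block was an alternative. Blocked values are printed where they change a call. Alternatives were each library left out, pseudocounts of 0.1 and 8, other filters, median-ratio factors, quantile normalization, no trend, array weights, the block, and count tests. Scaling by library total was added for the single time points after the data were seen. 1 carrier enters the counts but is not reported singly here. mRNAs encoded by mitochondrial DNA were not analysed here. Counts cover sampling error at the depths given, and a gene at the minimum rests on about 10 reads per library.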

Additional observations from a re-analysis of the deposited data

Results flagged for a closer look

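The genotype difference itself changed between time points for the following carriers, by the limma test over all 18 libraries (adjusted p under 0.05). From crypts to day 1, the log2 difference between Mtgr1-/- and WT grew by 1.49 in Slc25a45, 1.19 in Slc25a34, 1.16 in Slc25a44, 1.00 in Slc25a20, 0.99 in Slc25a17 and 0.85 in Slc25a51. It grew by 0.73 in Slc25a36, 0.67 in Slc25a15, 0.65 in Slc25a24, 0.61 in Slc25a11, 0.58 in Slc25a37 and 0.52 in Slc25a13. The change was -0.81 in Slc25a35, -0.78 in Slc25a4 and -0.53 in Slc25a25. For Slc25a4 and Slc25a25 the crypt value was the higher one, while Slc25a35 was already lower in crypts.

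From crypts to day 3, the difference grew by 1.71 in Slc25a45, 1.38 in Slc25a43, 1.28 in Slc25a24, 1.24 in Slc25a34 and 1.10 in Slc25a20. It also grew by 0.72 in Slc25a17, 0.72 in Slc25a44, 0.61 in Slc25a51 and 0.57 in Slc25a13, and changed by -0.98 in Slc25a47 and -0.53 in Slc25a25. Slc25a48 gave 1.86, but it had at most 15.2 normalized counts in crypts, was under the minimum there and entered this test through its enteroid values, so that its change is no more than a description. Slc25a43 had a WT mean of 5.83 at day 3, also under the minimum, so the size of its change rests on few WT counts. The changes of Slc25a34, Slc25a43 and Slc25a48 held in 3 of 10 alternatives each, whereas those of Slc25a20, Slc25a24 and Slc25a45 held in all 10.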

How the results depend on the processing

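Leaving out 1 library gave 0 to 3 carriers called in crypts, 20 to 26 at day 1 and 20 to 30 at day 3. Over all genes these calls numbered 176 to 608, 6136 to 7874 and 6096 to 7695. Leaving out 1 mouse gave 8 to 19 changes from crypts to day 1, 4 to 12 from crypts to day 3 and 0 to 5 from day 1 to day 3. Over all genes these changes numbered 3360 to 5595, 1737 to 3823 and 0 to 890. Array weights called 6 carriers in crypts, beside 2100 of 12980 genes. Under library totals, day 1 values became -0.00538 in Slc25a13, -0.282 in Slc25a16 and -0.0324 in Slc25a39, and under quantile normalization -0.0702 in Slc25a39 and -0.232 in Slc25a5. Each of these had been above 0. The normalized counts in place of CPM gave 3 rather than 5 carriers below crypts at day 3 in all 3 Mtgr1-/- mice. Lower calls at day 1 numbered 7 with array weights and 5 with the stricter filter or the replicate block, in place of 3, and lower calls at day 3 numbered 2 or 3 without 1 WT library, in place of 6.

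With mouse number as a replicate block, 3 carriers were called in crypts, 26 at day 1 and 26 at day 3. Over all genes this block called 562 of 12980, 8027 of 12587 and 7289 of 12782, so these counts do not set carriers apart. At day 3, where same-numbered libraries did not deviate together (correlations -0.00666, -0.00226 and -0.0156), the block ended the call of Slc25a47 and added that of Slc25a1. In crypts (0.0764, 0.274 and 0.346) it changed no call. Without the mouse as a block, the changes between time points numbered 15, 12 and 0, beside 5067, 3916 and 4 of 12937 genes. With 3 mice a genotype, the calls of low carriers such as Slc25a27 and Slc25a47 changed with single libraries.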
